A study of Mus musculus with 12 samples.

Results

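The hemoglobin genes examined here are the adult alpha globin genes Hba-a1 and Hba-a2, the adult beta globin genes Hbb-bs and Hbb-bt, and Alas2, the erythroid enzyme that starts heme synthesis. They were found by their symbols in the deposited count table and make up 5 of the 39017 genes listed. All 5 were among the 16527 genes kept by the filter on low counts. They were chosen with results of these data in view, and were selected on the fold changes between diets, in which Hba-a2 had differed in the tumors with the Glut1 allele, so the contrasts with doxycycline are given as a description without a test.

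RNA was sequenced from the CD45-negative fraction of 12 lung tumors of C57BL/6 mice, 3 in each of 4 groups. All mice carried p53 Fl/Fl and CCSP-rtTA, in which the promoter of the club cell secretory protein drives the doxycycline-dependent activator. All received 6000 viral units of the vector Lenti.TRE-PPARaD13_PGK-Cre into the trachea, which starts tumors through Cre and holds the dominant negative PPARα form PPARαΔ13 under a doxycycline-responsive promoter. The tumors labelled KP and KP-PPARαΔ13 had this background, and those labelled KPG1 and KPG1-PPARαΔ13 came from mice that also had Glut1 Fl/Fl. Mice of the KP-PPARαΔ13 and KPG1-PPARαΔ13 groups were fed doxycycline at 625 mg/kg of diet over 15 days, while mice of the KP and KPG1 groups had regular diet. Doxycycline itself and the induced protein therefore cannot be told apart. Tumors were taken 26 weeks after initiation. By a number in the labels that appears to name the mouse, the 12 tumors came from 9 mice, because tumors 1 and 2 of KP, tumors 1 and 2 of KPG1 and tumors 1 and 3 of KPG1-PPARαΔ13 each shared an animal. All KP tumors were female and all KPG1 tumors male, so genotype and sex cannot be told apart on the regular diet. On doxycycline, the KP-PPARαΔ13 tumors came from 1 female and 2 males. KPG1-PPARαΔ13 tumors 1 and 3 were from 1 female mouse and tumor 2 was from 1 male.

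Adult hemoglobin joins alpha and beta globin chains, each of which holds a heme group that binds oxygen. Mouse alpha globin is encoded by a pair of nearly identical genes on chromosome 11, and adult beta globin by a pair of neighbors on chromosome 7 whose names mark the single haplotype found in C57BL/6 mice. Globin messages are among the most abundant of developing red cells and persist in reticulocytes after the nucleus is lost. Alas2 on the X chromosome encodes the red-cell form of 5-aminolevulinate synthase, while its relative Alas1 serves heme synthesis in other cells. Some alveolar epithelial and endothelial cells have also been described to make globin.

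The genes of each globin pair differ so little that the letters decide what a read can say. In GRCm38/mm10, Hba-a1 lies at chr11:32283511-32284465 and Hba-a2 at chr11:32296489-32297298, both on the plus strand, with 12.978 kb between their starts. Over the 429 coding bases they differed at 1 position, the substitution C381T from Hba-a1 to Hba-a2, counted from the first coding base. The stretch around it in the last coding exon is shown because these are the only coding letters that tell the copies apart, with the differing base in capitals.
Hba-a1, chr11:32284313-32284373: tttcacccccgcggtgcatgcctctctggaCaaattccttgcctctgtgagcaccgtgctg
Hba-a2, chr11:32297130-32297190: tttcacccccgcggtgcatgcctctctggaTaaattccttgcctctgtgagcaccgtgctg
Hbb-bs lies at chr7:103826534-103828096 and Hbb-bt at chr7:103812524-103813996, both on the minus strand, with 14.1 kb between their starts. Their 444 coding bases also differed at 1 position, C417T from Hbb-bs to Hbb-bt, shown on the coding strand.
Hbb-bs, chr7:103826665-103826722: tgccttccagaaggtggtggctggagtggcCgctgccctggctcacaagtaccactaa
Hbb-bt, chr7:103812656-103812713: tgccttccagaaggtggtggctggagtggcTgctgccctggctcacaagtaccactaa
The remaining differences lay outside the coding sequence. Of the 85-base windows of each transcript, the length of a sequenced read, 369 of 615 (60.0%) in Hba-a1 and 369 of 470 (78.5%) in Hba-a2 were found letter for letter in the other copy. For Hbb-bs the shared windows were 346 of 544 (63.6%), and for Hbb-bt 346 of 619 (55.9%). No window was shared with a transcript of any other gene. How the authors' counting treated a read that fits both copies is not given in the sources used here, so the split of reads within each pair is uncertain, whereas the sum of a pair does not depend on it unless such reads were dropped.

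The bases upstream of the starts are shown because genes whose levels moved together are compared below. For each gene the 150 bases in RefSeq's promoter window (GRCm38.p6) that end near the start are given on the gene's strand, with matches to the CACCC box, the CCAAT box, the TATAA box and the GATA factor motif AGATAA, searched on both strands, in capitals.
Hba-a2, chr11:32296342-32296491: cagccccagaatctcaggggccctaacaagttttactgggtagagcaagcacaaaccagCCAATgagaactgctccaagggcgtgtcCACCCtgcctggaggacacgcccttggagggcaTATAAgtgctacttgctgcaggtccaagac
Hbb-bs, chr7:103827929-103828078: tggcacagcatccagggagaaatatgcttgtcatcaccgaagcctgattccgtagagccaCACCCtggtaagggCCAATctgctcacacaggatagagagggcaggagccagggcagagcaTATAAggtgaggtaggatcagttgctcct
Hbb-bt, chr7:103813924-103814073: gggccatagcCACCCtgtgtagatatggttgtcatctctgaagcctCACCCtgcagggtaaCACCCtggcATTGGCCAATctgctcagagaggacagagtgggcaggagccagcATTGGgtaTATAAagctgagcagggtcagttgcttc
Alas2, chrX:150547267-150547416: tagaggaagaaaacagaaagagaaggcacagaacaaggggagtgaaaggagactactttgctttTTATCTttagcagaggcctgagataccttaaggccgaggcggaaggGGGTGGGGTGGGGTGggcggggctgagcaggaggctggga
The whole RefSeq window is longer than the 150 bases shown and also holds bases after the start. Over it, Hba-a1 matched Hba-a2 at 297 of 297 aligned bases, so Hba-a1 is not repeated. The 3 globin stretches shown held the CACCC box, the CCAAT box and the TATAA box, the last at 28 to 30 bases before the start. The stretch of Alas2 held CACCC and AGATAA on the opposite strand and neither CCAAT nor TATAA. Over the same 150 bases of 32851 promoters, CACCC occurred in 37.4%, CCAAT in 24.5%, TATAA in 14.2% and AGATAA in 5.65%. Within the pair of beta globins the whole windows matched at 168 of 299 bases without gaps. A match is a description of the letters and not a site of binding.

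The total count per tumor was 25263794 to 32654223, and the 4 globins together took 0.0326% to 0.143% of it (median 0.0788%). Levels are given as CPM, the counts of a gene scaled by the tumor's summed counts over the 16527 genes kept by the filter and by its TMM factor. Alveolar type 2 markers, the surfactant genes of the epithelium from which many lung tumors arise, summed to 24358 to 77957 CPM, led by Sftpc at 5540 to 29952 CPM. Leukocyte markers summed to 40.7 to 99.1 CPM, with Ptprc, the gene of CD45, at 1.88 to 31.5 CPM. Slc2a1, the gene of Glut1, was not lower in the tumors labelled KPG1 (44.7 ± 17.4 CPM, SD, n = 3) than in those labelled KP (44.9 ± 11.5 CPM, SD, n = 3), and Ppara spanned 2.71 to 246 CPM in KP-PPARαΔ13, 8.90 to 19.2 CPM in KPG1-PPARαΔ13 and 7.24 to 15.7 CPM on the regular diet. On doxycycline, Slc2a1 was at 43.8 ± 17.4 CPM in KPG1-PPARαΔ13 and 125 ± 23.9 CPM in KP-PPARαΔ13 (SD, n = 3 each), without overlap. The KP-PPARαΔ13 tumors thus stood above all other groups, while KPG1-PPARαΔ13 lay near KP and KPG1. Slc2a1 did not tell the genotypes apart on the regular diet, and on doxycycline it did so only through the higher KP-PPARαΔ13 group. Why that group was higher was not tested. Directions drawn between genotypes below compare tumors by their labels. The red-cell content of the fraction was not measured, a lysis step for red cells is not given in the sources used here, and in such bulk samples fewer cells of a type and less RNA per cell cannot be told apart.

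Compared per length of exon, the beta globins stood highest and Alas2 lowest. Mean CPM per kb of exon over the 12 tumors was 473 ± 225 (SD, n = 12) for Hbb-bt, 439 ± 279 for Hbb-bs, 130 ± 89.1 for Hba-a1, 51.1 ± 53.5 for Hba-a2 and 14.6 ± 8.03 for Alas2. The overall spreads of Hbb-bt and Hbb-bs overlapped, as did those of Hba-a1 and Hba-a2. Within tumors, however, Hba-a1 was higher per kb than Hba-a2 in 12 of 12, by 1.17-fold or more, whereas Hbb-bt was higher than Hbb-bs in 8 of 12. These orders use exon length and not the read windows that a gene holds alone. Such windows numbered 246 for Hba-a1, 101 for Hba-a2, 198 for Hbb-bs and 273 for Hbb-bt. If reads that fit both copies were dropped, the order within a pair could differ, so no order of expression is read from it. The highest tumor exceeded the lowest by 5.63-fold for Alas2, 6.08-fold for Hbb-bt, 7.53-fold for Hbb-bs, 11.3-fold for Hba-a1 and 1181-fold for Hba-a2.

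**Figure D1:**
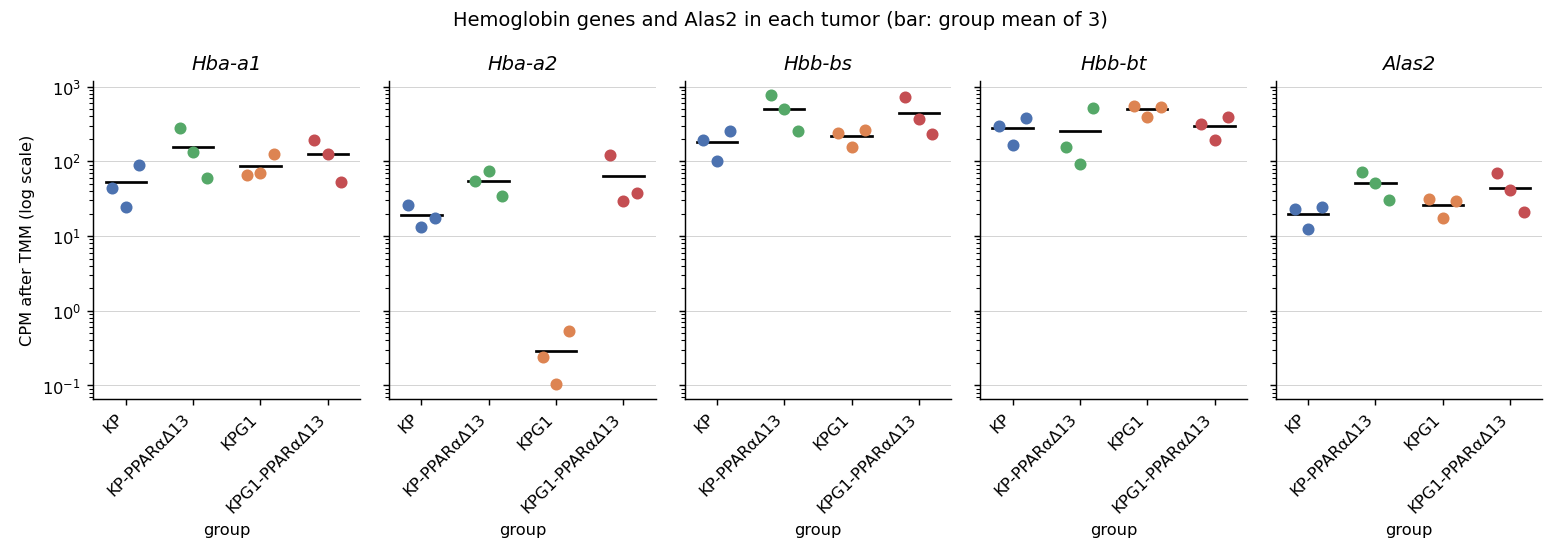
CPM of each member gene in each of the 12 tumors on a log axis, by group, with the mean of each group as a bar. Hba-a2 lies under 1 CPM in the 3 KPG1 tumors and at 13.1 CPM or more in the other 9, while the other genes span 5.63-fold to 11.3-fold in all.

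Hba-a1, the upstream alpha globin gene of the pair, was measured in every tumor. Its level in KP tumors 1 to 3 was 44.4, 24.6 and 89.0 CPM. In KP-PPARαΔ13 it was 277, 132 and 60.1 CPM. Both groups spread widely, and tumor 3 of KP-PPARαΔ13 lay below the highest KP tumor. In KPG1 the values were 65.2, 68.7 and 126 CPM, and in KPG1-PPARαΔ13 they were 196, 126 and 53.0 CPM. The 4 groups overlapped, with means of 52.6 ± 33.0 CPM in KP, 157 ± 111 in KP-PPARαΔ13, 86.6 ± 34.1 in KPG1 and 125 ± 71.4 in KPG1-PPARαΔ13 (SD, n = 3 each).

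Hba-a2, the other alpha globin gene, was the member that varied most. It was at 26.2, 13.1 and 17.6 CPM in the KP tumors and at 53.7, 75.1 and 34.4 CPM in the KP-PPARαΔ13 tumors. In the KPG1 tumors it was at 0.240, 0.103 and 0.529 CPM, from 6, 3 and 16 counts. In the KPG1-PPARαΔ13 tumors it was at 122, 29.1 and 37.1 CPM. The 3 KPG1 tumors thus held 25 counts of Hba-a2 together against 7439 of Hba-a1, and they overlapped with no other group. Group means were 18.9 ± 6.64 CPM in KP, 54.4 ± 20.3 in KP-PPARαΔ13, 0.291 ± 0.217 in KPG1 and 62.7 ± 51.5 in KPG1-PPARαΔ13 (SD, n = 3 each).

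The share of alpha globin counts assigned to Hba-a2 fell into 3 ranges across the tumors, and this was seen after the values were known. It was 0.367% (95% Wilson interval 0.168% to 0.798%), 0.150% (0.0511% to 0.440%) and 0.418% (0.257% to 0.678%) in the KPG1 tumors. In 3 tumors of 3 mice it lay between 16.2% and 18.8%, namely KP 3 at 16.5% (15.2% to 17.9%), KP-PPARαΔ13 1 at 16.2% (15.5% to 17.0%) and KPG1-PPARαΔ13 2 at 18.8% (17.7% to 19.9%). In the other 6 tumors, of 4 mice, it lay between 34.8% and 41.2%, with 37.1% and 34.8% in KP 1 and 2, 36.2% and 36.4% in KP-PPARαΔ13 2 and 3, and 38.4% and 41.2% in KPG1-PPARαΔ13 1 and 3. Tumors of the same mouse always fell in the same range, with differences of 2.33 percentage points in KP, 0.217 in KPG1 and 2.77 in KPG1-PPARαΔ13. The lowest range held the 3 KPG1 tumors and no others, while KP, KP-PPARαΔ13 and KPG1-PPARαΔ13 each held 1 tumor in the middle range and 2 in the highest. The 3 KPG1 tumors came from 2 mice, so the lowest range rests on 2 animals. Intervals here and below cover counting error only.

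**Figure D2:**
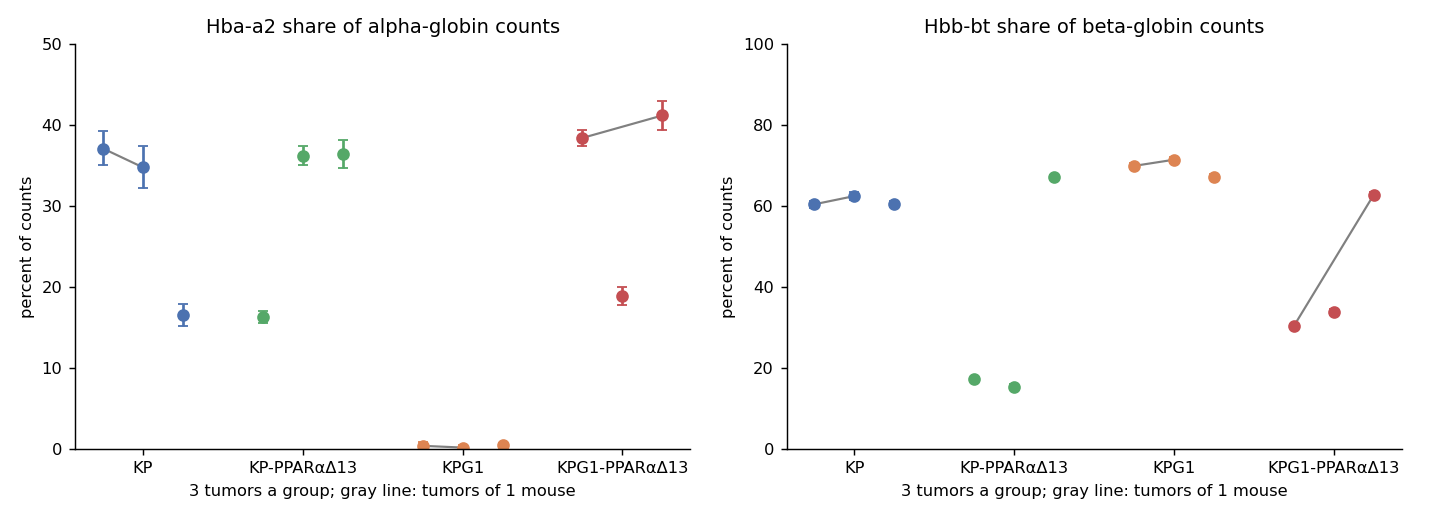
Share in percent of alpha globin counts assigned to Hba-a2 and of beta globin counts assigned to Hbb-bt in each tumor, with 95% Wilson intervals; tumors of the same mouse are joined by a line. The Hba-a2 share lies under 0.5% in KPG1 and between 16.2% and 41.2% elsewhere, and the Hbb-bt share lies between 15.4% and 33.8% in 4 doxycycline tumors and between 60.4% and 71.4% in the other 8.

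Hbb-bs, the upstream gene of the adult beta globin pair, was at 194, 101 and 251 CPM in the KP tumors. In KP-PPARαΔ13 it was at 761, 501 and 257 CPM, all above the KP tumors although tumor 3 was so by a small margin. In KPG1 it was at 238, 155 and 264 CPM, and in KPG1-PPARαΔ13 at 721, 373 and 231 CPM. The lowest KPG1-PPARαΔ13 tumor lay within the KPG1 range. Group means were 182 ± 75.8 CPM in KP, 506 ± 252 in KP-PPARαΔ13, 219 ± 56.9 in KPG1 and 442 ± 252 in KPG1-PPARαΔ13 (SD, n = 3 each).

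Hbb-bt, the other adult beta globin gene, was ordered differently across the tumors. It was at 296, 168 and 383 CPM in KP and at 157, 90.9 and 522 CPM in KP-PPARαΔ13. In KPG1 it was at 552, 388 and 542 CPM, each above the highest KP tumor. In KPG1-PPARαΔ13 it was at 313, 191 and 389 CPM. KP-PPARαΔ13 tumors 1 and 2, which held the highest Hba-a1 and Hbb-bs of their group, held its lowest Hbb-bt, and the reverse was true of tumor 3. Group means were 282 ± 108 CPM in KP, 257 ± 232 in KP-PPARαΔ13, 494 ± 92.0 in KPG1 and 298 ± 99.9 in KPG1-PPARαΔ13 (SD, n = 3 each).

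The share of beta globin counts assigned to Hbb-bt also split the tumors, but along other lines than the share within the alpha pair. It was 60.4%, 62.4% and 60.4% in KP and 69.9%, 71.4% and 67.2% in KPG1. In KP-PPARαΔ13 it was 17.1%, 15.4% and 67.0%, and in KPG1-PPARαΔ13 30.3%, 33.8% and 62.7%. All 6 regular-diet tumors and tumor 3 of each doxycycline group were therefore above 60%, and the other 4 were under 35%. Tumors of the same mouse differed by 2.03 percentage points in KP and 1.53 in KPG1, but by 32.4 in KPG1-PPARαΔ13, where tumors 1 and 3 of that mouse fell on either side of the gap.

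Alas2, which makes the first intermediate of heme in red-cell precursors, was at 22.8, 12.6 and 24.2 CPM in KP. In KP-PPARαΔ13 it was at 70.9, 51.1 and 30.0 CPM, all above the KP tumors. It was at 31.0, 17.2 and 29.2 CPM in KPG1 and at 69.1, 41.2 and 21.2 CPM in KPG1-PPARαΔ13, which overlapped. Group means were 19.8 ± 6.33, 50.7 ± 20.4, 25.8 ± 7.46 and 43.8 ± 24.1 CPM in KP, KP-PPARαΔ13, KPG1 and KPG1-PPARαΔ13 (SD, n = 3 each). The order of the 12 tumors by Alas2 was close to that by Hbb-bs. Counts of Hbb-bs per count of Alas2 ranged only from 7.69 to 10.9 (coefficient of variation 11.6%), whereas those of the summed alpha globins per Alas2 ranged from 2.11 to 4.67 (20.8%) and those of Hbb-bt per Alas2 from 1.78 to 22.5 (58.2%).

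Whether the globins moved together and with Alas2 was tested on log2 CPM after the mean of each group had been removed, so that the diet contrast that chose Hba-a2 did not enter. The summed globins correlated with Alas2 from tumor to tumor, while the relation of alpha with beta globins did not pass the test. For the 4 globins against Alas2 over the 12 tumors, Pearson's r was 0.81 (two-sided exact permutation p = 0.00849, adjusted p = 0.0170 over the 2 relations) and Spearman's rho 0.86 (exact permutation p = 0.00617, adjusted p = 0.0123). For summed alpha against summed beta globins, r was 0.68 (exact permutation p = 0.0532, adjusted p = 0.0532) and rho 0.67 (exact permutation p = 0.0525). Tumors of the same mouse are not independent. With the tumors of a mouse averaged, leaving 9 mice and 48 orders, r was 0.62 (exact permutation p = 0.25, adjusted p = 0.333) for Alas2 and 0.53 (adjusted p = 0.333) for alpha with beta, where the smallest p that the design allows is 0.0208. Without the 2 tumors farthest from the median, r was 0.63 (exact permutation p = 0.118) for Alas2, so that the call rests on those tumors, and 0.77 (exact permutation p = 0.0764) for alpha with beta. The call for Alas2 was also lost when KP 1, KP 2, KP 3 or KPG1 2 was left out (adjusted p = 0.0741, 0.125, 0.0741 and 0.0718 by exact permutation). The relation of alpha with beta globins passed the threshold without KP-PPARαΔ13 2, KP-PPARαΔ13 3 or KPG1 1 (r = 0.75, 0.84 and 0.73).

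**Figure D3:**
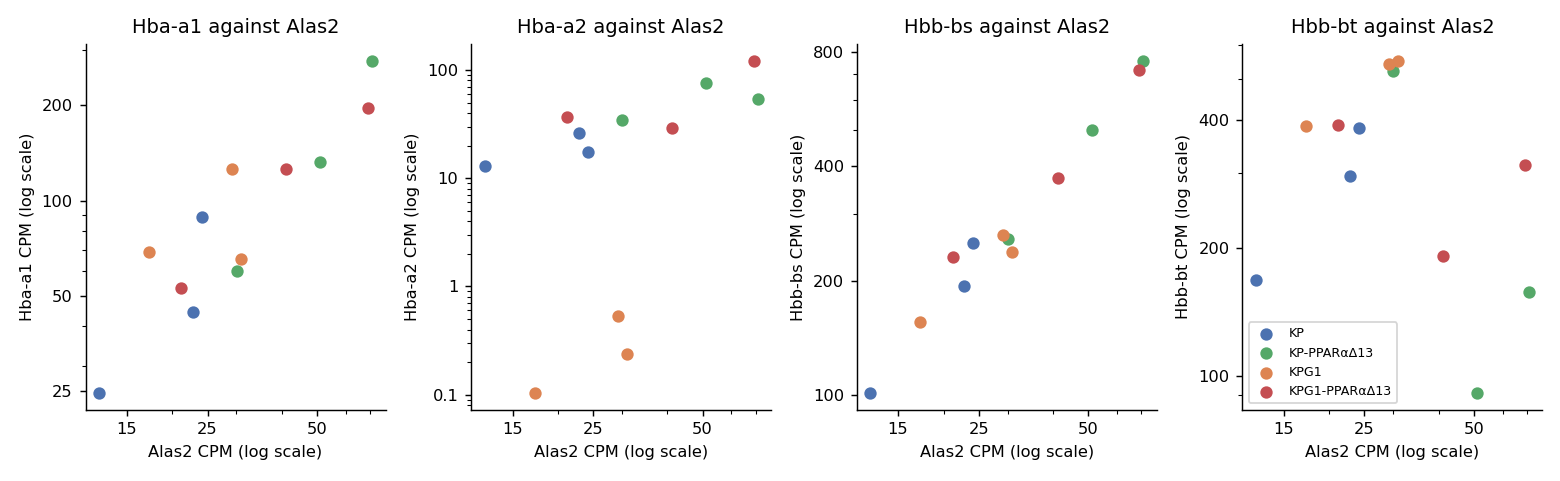
CPM of each globin gene against CPM of Alas2 in each of the 12 tumors, both on log axes, 1 panel a gene, colored by group. Hbb-bs and Hba-a1 are high where Alas2 is high, the 3 KPG1 tumors lie far below the others for Hba-a2, and Hbb-bt shows no such order.

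The 10 pairs of single genes, added after seeing the data, separated Hbb-bt from the others. Within groups, Hbb-bs and Alas2 had r = 0.97 (exact permutation p = 0.00154, adjusted p = 0.0154 over the 10 pairs), and r stayed between 0.96 and 0.98 when each tumor was left out. Hba-a1 with Hbb-bs had r = 0.94 (exact permutation p = 0.00309, adjusted p = 0.0154), and Hba-a1 with Alas2 had r = 0.88 (exact permutation p = 0.00694, adjusted p = 0.0231). These 3 pairs passed the test over the 12 tumors, with rho of 0.97, 0.90 and 0.82. Over the 9 mice their r was 0.98 (exact permutation p = 0.0417), 0.97 (exact permutation p = 0.0625) and 0.97 (exact permutation p = 0.0208). The p-values over mice were not adjusted over the 10 pairs, and 0.0208 is the smallest that 48 orders allow, so no call is made over mice. Without the 2 tumors farthest from the median, r of these pairs was 0.97, 0.91 and 0.84. Hba-a2 had r = 0.72 with Hbb-bs (exact permutation p = 0.0293, adjusted p = 0.0733), 0.71 with Alas2 (exact permutation p = 0.0478, adjusted p = 0.0957) and 0.56 with Hba-a1 (exact permutation p = 0.0949, adjusted p = 0.158). In KPG1 tumors 1 to 3 its values rest on only 6, 3 and 16 counts, so part of its spread within groups comes from few reads. Hbb-bt had r between -0.22 and -0.04 with the other 4 genes (exact permutation p from 0.676 to 0.892). Without the 2 tumors farthest from the median of Hbb-bs, r of Hbb-bs and Hbb-bt was 0.98, so the lack of relation rests on those tumors. Hba-a1, Hbb-bs and Alas2 lie on 3 chromosomes and shared no window of read length.

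**Figure D4:**
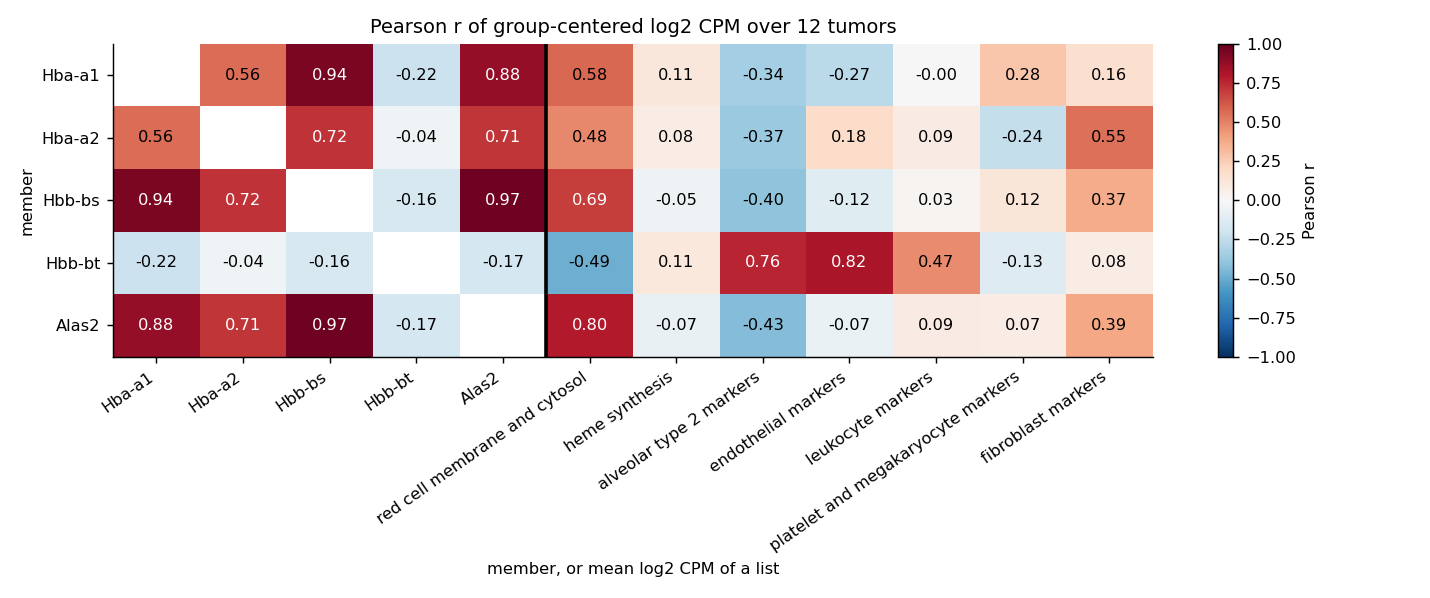
Pearson's r of each pair of member genes and of each member with the mean log2 CPM of 7 gene lists, within groups over the 12 tumors, as colored cells with the value printed. The pairs among Hba-a1, Hbb-bs and Alas2 have r of 0.88 to 0.97, and the pairs with Hbb-bt have r of -0.22 to -0.04.

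The contrasts between genotypes compared tumors labelled with and without the floxed Glut1 alleles. Hba-a2 was lower in the tumors labelled KPG1 than in those labelled KP by a log2 fold change of -5.99 (SE 0.738, edgeR quasi-likelihood test, Benjamini-Hochberg adjusted p = 0.0248), and it was 1 of 6 genes called, which is 0.0363% of the 16527 genes tested. This comparison shares its KPG1 tumors with the diet contrast in which Hba-a2 had been chosen, so the call is not independent of the choice. It was lost with sex as a covariate (log2 fold change -4.88, adjusted p = 0.408), with the tumors of a mouse summed (-5.79, adjusted p = 0.178), with limma voom (-6.13, adjusted p = 0.431), and without KP 1, KP 3, KP-PPARαΔ13 1, KPG1 1, KPG1 2 or KPG1 3 (adjusted p from 0.0696 to 0.241 by edgeR). With both alpha copies summed there was no such difference, and the log2 fold change was 0.28 (SE 0.549, adjusted p = 0.947 by edgeR).

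The other members were not called between the tumors labelled KPG1 and KP. Hba-a1 had a log2 fold change of 0.72 (SE 0.621, adjusted p = 0.858), Hbb-bs of 0.27 (SE 0.485, adjusted p = 0.942), Hbb-bt of 0.81 (SE 0.550, adjusted p = 0.827) and Alas2 of 0.38 (SE 0.447, adjusted p = 0.897) by edgeR. Without 1 tumor these values ranged from 0.37 (without KPG1 3) to 1.33 (without KP 3) for Hba-a1, from -0.02 (without KP 2) to 0.57 (without KP 3) for Hbb-bs and from 0.14 (without KP 2) to 0.62 (without KPG1 2) for Alas2. The summed beta globins had 0.62 (SE 0.344, adjusted p = 0.799). Of the 5 members, 1 was called at an unadjusted p under 0.05, beside 6.23% of all genes. In CPM the groups did not overlap for Hba-a2, which was lower as were 5.13% of all genes, and for Hbb-bt, which was higher as were 4.82%.

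Between KPG1-PPARαΔ13 and KP-PPARαΔ13, a comparison that did not choose the members but shares the KPG1-PPARαΔ13 tumors with the one that did, no member was called and the tumors overlapped for all 5. The log2 fold changes were -0.33 (SE 0.618) for Hba-a1, 0.21 (SE 0.558) for Hba-a2, -0.20 (SE 0.485) for Hbb-bs, 0.21 (SE 0.547) for Hbb-bt and -0.21 (SE 0.445) for Alas2, with adjusted p from 0.882 to 0.923 by edgeR. The summed pairs had -0.17 (SE 0.548) for alpha and -0.05 (SE 0.343) for beta. In this comparison 0.0303% of all genes were called and 9.69% had an unadjusted p under 0.05, and no member did so. The sign of each of the 5 values turned when 1 tumor was left out, with KP-PPARαΔ13 1 left out for Hba-a1 (0.37), Hbb-bs (0.22), Hbb-bt (-0.04) and Alas2 (0.11), and KPG1-PPARαΔ13 1 for Hba-a2 (-0.72), so no direction is read from them.

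Between diets the members are described only. From KP to KP-PPARαΔ13 the log2 fold change was 1.57 (SE 0.632) for Hba-a1, 1.52 (SE 0.572) for Hba-a2, 1.47 (SE 0.495) for Hbb-bs, 1.35 (SE 0.454) for Alas2 and -0.14 (SE 0.547) for Hbb-bt, the last being -1.18 without KP-PPARαΔ13 3. Of these, Hba-a2, Hbb-bs and Alas2 were higher in all 3 KP-PPARαΔ13 tumors than in any KP tumor, as were 6.55% of all genes. From KPG1 to KPG1-PPARαΔ13 it was 7.72 (SE 0.784) for Hba-a2, 0.53 (SE 0.619) for Hba-a1, 1.01 (SE 0.490) for Hbb-bs, 0.76 (SE 0.448) for Alas2 and -0.73 (SE 0.549) for Hbb-bt. Without KPG1-PPARαΔ13 1 these were 0.044 for Hba-a1, 0.46 for Hbb-bs and 0.27 for Alas2, and without KPG1-PPARαΔ13 3 they were 0.89, 1.32 and 1.09. In KP, without KP-PPARαΔ13 1, Hba-a1 was 0.87. Between the KPG1 groups only Hba-a2 of the 5 was without overlap, higher as were 11.2% of all genes. Of all genes, 0.00605% were called in each of these comparisons, 1 gene in either, and 11.4% and 10.8% had an unadjusted p under 0.05. In the KPG1 comparison the gene called was Hba-a2, which is the reading that chose it, so this call counts as no test of Hba-a2. The summed alpha globins had 1.56 (SE 0.561) in KP and 1.11 (SE 0.554) in KPG1, and the summed beta globins 0.72 (SE 0.345) and 0.05 (SE 0.343). Adding the copies thus brought the alpha values of both genotypes close together.

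**Figure D5:**
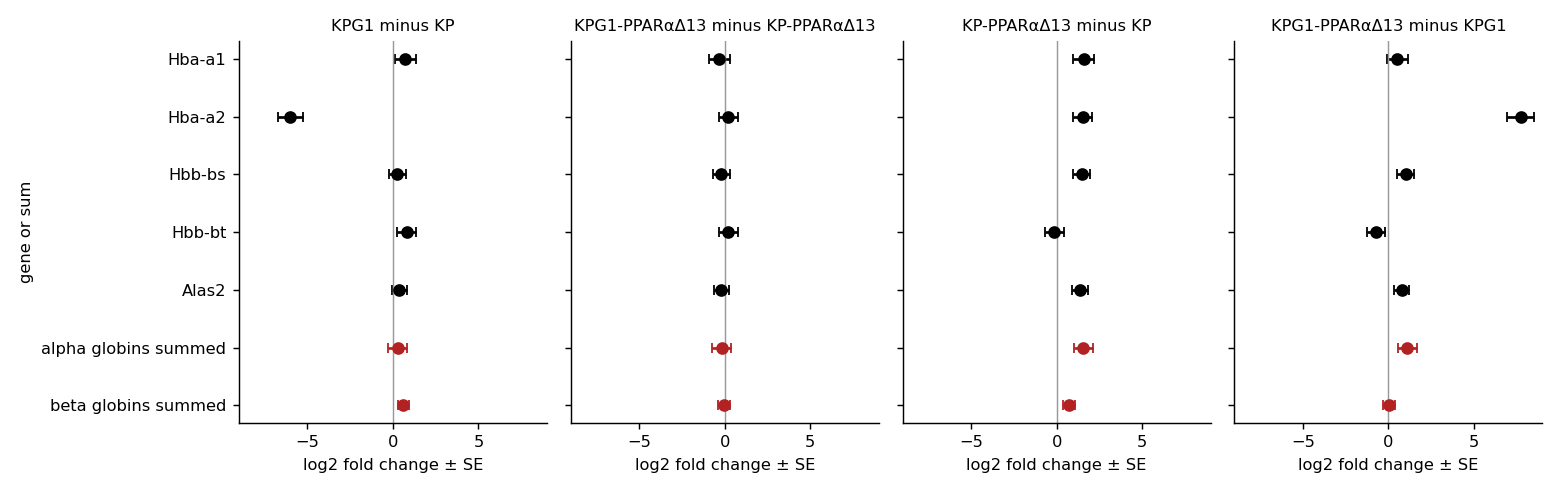
Log2 fold change with its standard error for the 5 member genes and the summed alpha and beta globins in the 4 comparisons, with a line at 0. Hba-a2 stands at -5.99 in KPG1 against KP and at 7.72 in KPG1-PPARαΔ13 against KPG1, while the summed alpha globins stand at 0.28 and 1.11.

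The difference of the diet effect between genotypes, KPG1 minus KP, was 6.20 on the log2 scale for Hba-a2 (SE 0.908). It contains the comparison in which Hba-a2 had been chosen and is given without a test. Sex, mouse and genotype move together in part here, and their part in the result was not tested beyond the fits named.

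Around the members, 124 genes in 11 lists describe the rest of the erythroid program and other cell types of the fraction, of which 123 were in the table and 93 passed the filter. None was called in any of the 4 comparisons by edgeR, with 10 at an unadjusted p under 0.05 in KPG1 against KP, 8 in KPG1-PPARαΔ13 against KP-PPARαΔ13, 9 between the KP groups on the 2 diets and 12 between the KPG1 groups, beside 6.23%, 9.69%, 11.4% and 10.8% of all genes. By limma voom none was called in any of them, and by DESeq2 0, 1, 3 and 2 were, in the same order. Over all 16527 genes DESeq2 called 60, 155, 372 and 211. The list genes called by DESeq2 were Epb4.2, a protein of the red-cell membrane skeleton, in the second, Epb4.2 again with Cpox, an enzyme of heme synthesis, and Dcn, a fibroblast proteoglycan, in the third, and Hfe, an iron regulator, and Lamp3, an alveolar type 2 marker, in the fourth.

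Several genes largely restricted to red-cell precursors were at or near 0. Slc4a1, the anion exchanger of the red-cell membrane, lay between 0.0344 and 0.839 CPM. Hemgn lay between 0 and 0.206 CPM, and the erythroid transcription factors Gata1 and Klf1 between 0 and 0.377 CPM and between 0.0320 and 0.333 CPM. These genes were thus under 1 CPM in every tumor, as were 11 of the 23 red-cell genes measured. The other red-cell genes were higher in some or all tumors. The membrane skeleton genes Epb42, listed as Epb4.2, and Ank1 spanned 0.343 to 117 CPM and 0.165 to 42.2 CPM, and were named after their values were seen. Among the red-cell genes with the highest mean level were Tfrc at 177 to 444 CPM, Epb41 at 94.4 to 135 CPM and Car2 at 4.12 to 89.0 CPM, which other cells also express. Summed, the red-cell list lay between 372 and 704 CPM and its tested genes had a median log2 fold change of 0.16 from KP to KP-PPARαΔ13 and 0.45 from KPG1 to KPG1-PPARαΔ13, beside -0.01 and 0.02 over all genes tested.

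Other globin genes were scarce. The embryonic Hbb-y and Hbb-bh1, and Hbb-bh2 and Hbb-bh0, had no count in any of the 12 tumors, where 3 counts would be 0.0910 to 0.120 CPM, and Hba-x had 1 count in all. Cygb, the gene of cytoglobin, which is found in fibroblasts, was the highest at 0.861 to 4.86 CPM. Car1, a carbonic anhydrase of red cells, also had no count.

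The other genes of heme synthesis were expressed in every tumor. The 14 genes of that list summed to 619 to 1045 CPM, led by the mitochondrial iron carrier Slc25a37 at 123 to 408 CPM, the housekeeping Alas1 at 75.9 to 179 CPM and Alad at 61.6 to 101 CPM. From KP to KP-PPARαΔ13, 6 of the 14 had a positive log2 fold change and 8 a negative one, with a median of -0.01. From KPG1 to KPG1-PPARαΔ13 these were 7 and 7, with a median of -0.03. The difference between Alas2 and this list was not tested.

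Iron and hemoglobin clearance genes were not called by edgeR. Iron genes were led by the ferritin chains Fth1 at 284 to 1313 CPM and Ftl1 at 313 to 609 CPM, and by transferrin, Trf, at 74.2 to 1109 CPM. Clearance genes were led by haptoglobin, Hp, which binds free hemoglobin, at 19.4 to 1901 CPM, by the receptor Lrp1 at 60.1 to 233 CPM, and by heme oxygenase Hmox1 at 36.9 to 188 CPM. Erythroid transcription factors were led by Ldb1 at 99.4 to 210 CPM, which most cells express, followed by Zfpm1 at 5.72 to 30.8 CPM and Gata2 at 1.24 to 55.5 CPM.

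Markers of other cell types varied too. Platelet and megakaryocyte markers summed to 15.9 to 148 CPM, led by Pf4 at 10.4 to 138 CPM, while Itga2b was at 1.98 to 6.49 CPM and Ppbp at 0.0606 to 2.06 CPM. Endothelial markers summed to 161 to 899 CPM, led by Vwf at 54.2 to 248 CPM, Pecam1 at 25.8 to 158 CPM and Cdh5 at 26.4 to 148 CPM. Fibroblast markers summed to 98.3 to 569 CPM, led by Col1a2, Col3a1 and Col1a1. Leukocyte markers were led by Cd68 at up to 23.7 CPM, Mrc1 at 2.90 to 51.7 CPM and Csf1r at 2.63 to 18.6 CPM, and the alveolar list by Sftpc, Sftpb and Sftpa1.

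Correlations of the 5 members with 7 of these lists within groups, also added after seeing the data, gave 35 relations, of which none passed the adjusted test and 2 had an unadjusted p under 0.05. Hbb-bt had r = 0.82 with the endothelial markers (exact permutation p = 0.0216, adjusted p = 0.520), rho = 0.76 (exact permutation p = 0.0262), and r = 0.84 without the 2 farthest tumors. Alas2 had r = 0.80 with the red-cell list (exact permutation p = 0.0417, adjusted p = 0.520), rho = 0.65 (exact permutation p = 0.0818), and r = 0.42 without the 2 farthest tumors. Hbb-bt had r = 0.76 with the alveolar type 2 markers (exact permutation p = 0.0579), whereas Hbb-bs had -0.40 (exact permutation p = 0.322) and Alas2 -0.43 (exact permutation p = 0.231). The part of other cell types in the globin levels was not tested.

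Over the 12 tumors without regard to group, and as a description only, the 10 genes most like the summed globins were Pxdn (r = 0.95), Gadd45a (0.88), Gm1661 (0.88), Ctsl (0.88), Ugdh (0.87), Hbb-bs (0.87), Cystm1 (0.86), Hba-a1 (0.86), Alas2 (0.86) and Smim15 (0.85), on log2 CPM. The tumors share library preparation, and 6 of them share a mouse with another. Of the members, 3 were thus among the 10, although the sum contains Hbb-bs and Hba-a1. Hba-a2, with r = 0.18, and Hbb-bt, with r = 0.16, were far from the sum to which they contribute.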

How the data were processed

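Total RNA of the CD45-negative fraction of 12 tumors, isolated with anti-CD45 MicroBeads and TRIzol, was sequenced as stranded mRNA libraries with single-end reads of 85 nt. Per the labels, the authors aligned the reads to mm10 and deposited counts, whole numbers of reads per gene without normalization. The submitters' processing notes name bcl2fastq 2.17, cutadapt 1.4.2, HISAT2, featureCounts 1.4.4 and edgeR. The annotation, the strand setting and the treatment of reads that fit several genes are not given in the sources used here. The deposited log2 values were not used, and some items are not reported here. The table listed 39017 genes, 13548 of them without a count, and the file of each of the 12 tumors was equal to the combined table. Columns that match no sample numbered 0.

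Groups came from the labels. The members and lists were chosen with earlier results of these data known. Counts were fitted with edgeR 4.0.16 under R 4.3.3 (filterByExpr, TMM, glmQLFit and glmQLFTest, 8 residual degrees of freedom, all 12 tumors fitted together) and adjusted by Benjamini-Hochberg over 16527 genes at a threshold of 0.05. The standard error of a fold change was taken as its size over the root of the F statistic. Correlations used log2 CPM with a prior count of 2, centered on each group, and two-sided exact permutation over the 1296 orders of the tumors within groups. Tumors of the same animal are not independent, and p-values measure only the spread between these tumors. Total counts of 25263794 to 32654223 make the spread between tumors the limit, except for genes of few counts. Named besides the members were the 3 genes of the highest mean CPM in each list, genes called in a comparison, erythroid genes at or near 0, and the 10 genes most like the summed globins. Exon lengths and positions come from GENCODE M21, and upstream sequences from RefSeq. The scripts were tested on simulated counts for KPG1 against KP, with 50 genes changed at each fold. The edgeR fit recovered 12% of changes of 2-fold, 54% of 4-fold, 86% of 8-fold and 82% of 16-fold. Changes of 2-fold were thus mostly missed there and those of 4-fold often were, so a member not called may still differ by 2-fold or 4-fold. Alternatives were DESeq2 1.42.0, limma 3.58.1 voom, no filter, a prior count of 0.5, no TMM, sex as a covariate, tumors of a mouse summed or averaged, copies summed, the replicate number as a block and leaving out each tumor.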

Additional observations from a re-analysis of the deposited data

How the results depend on the processing

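The comparisons were recomputed with limma voom, DESeq2, all genes unfiltered, upper-quartile scaling, only the groups compared, a replicate block, a term for sex, tumors of a mouse summed and near-identical copies summed, and with each tumor left out; the correlations with the settings given below. The members called between genotypes numbered 1, and 0 with limma voom, sex as a covariate, tumors of a mouse summed or copies summed, and 0 to 1 without 1 tumor. The replicate numbers did not pair the tumors: of 18 pairs of tumors with the same number 2 had a correlation of deviations over 0.1 (range -0.19 to 0.127), and 1 of 12 tumors was closest to its own number. With the replicate block the correlation was 0.83 for alpha with beta globins and 0.92 for the globins with Alas2 (adjusted exact permutation p = 0.0278 each), and the block changed no call of a member in a comparison of groups. The correlation of alpha with beta globins passed the threshold without removal of group means over 12 tumors (0.72) and without TMM factors (0.71), and lay between 0.56 and 0.84 without 1 tumor. That of the globins with Alas2 missed it over 9 mice (0.62) and without the 2 farthest tumors (0.63), settings with fewer points, and lay between 0.73 and 0.86 without 1 tumor.

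Log2 fold changes that turned sign, none of them called in the alternative, were as follows. In KPG1 against KP these were Hba-a2 with copies summed (0.28) and Hbb-bs without KP 2 (-0.022, with 0.57 the highest value without 1 tumor). In KPG1-PPARαΔ13 against KP-PPARαΔ13, Hba-a2 turned with limma voom (-0.032), sex (-0.26), the replicate block (-0.060), tumors of a mouse summed (-0.046) and copies summed (-0.17), and Hbb-bt with copies summed (-0.045). Without 1 tumor, in that comparison Hba-a1 ranged from -0.81 to 0.37, Hba-a2 from -0.72 to 0.55, Hbb-bs from -0.74 to 0.22, Hbb-bt from -0.19 to 1.26 and Alas2 from -0.70 to 0.12. Between diets, copies summed gave 0.72 for Hbb-bs and Hbb-bt in KP, and 1.11 for Hba-a2 and 0.052 for Hbb-bs and Hbb-bt in KPG1, by construction. Hba-a2 in KPG1 was 6.85 with sex as a covariate and 6.80 to 8.47 without 1 tumor, and Hbb-bt in KP was -1.18 to 0.27. List genes called by DESeq2 numbered 1, 3 and 2 in KPG1-PPARαΔ13 against KP-PPARαΔ13, KP-PPARαΔ13 against KP and KPG1-PPARαΔ13 against KPG1. Except for copies summed, the cause was not tested. Depth limits only genes of few counts, such as Hba-a2 in KPG1.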

Other observations

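Each member's nearest genes over the 12 tumors, chosen after their values were seen, are given as values. For Hbb-bs they included Alas2 (r = 0.99) and Hba-a1 (0.93), and for Hba-a1 they included Hbb-bs (0.93) and Alas2 (0.90). Hba-a2 had none of these among its nearest genes, which were Sh3pxd2b (0.90), 9630033F20Rik (0.89) and St3gal2 (0.88). Hbb-bt was nearest to Ybey (0.94), D630024D03Rik (0.90) and Slc2a12 (0.89). All are correlations over tumors that in part share a mouse, with no test.

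The ratio of the beta to the alpha globin counts ranged from 2.77 to 12.1, and that of Hbb-bs to the alpha globins from 2.09 to 3.64.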
